A study of Mus musculus with 6 samples.

Results

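The milk protein and secretory differentiation genes examined here were Csn1s1, Csn2, Csn3, Wap, Lalba, Ltf, Lcn2, Xdh, Mfge8 and Prlr, taken as the rows of the deposited counts with these symbols. All 10 were found among the 21960 genes counted. RNA-Seq data came from TuBo cells, which were derived from a mammary carcinoma of BALB/c mice carrying an activated rat HER2/neu transgene under the MMTV promoter, so that a HER2 oncogene is shared by both groups. There were 3 libraries of mock cells, which the labels call control or wt, and 3 of p140Cap cells. p140Cap cells had received a p140Cap cDNA by pBabe-puro retrovirus, were selected with puromycin and cloned from single cells, and positive clones were pooled. The labels name cell lines in one place and mice in another, and the samples were read here as cultured TuBo cells.

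Secretory differentiation is the step by which luminal alveolar cells of the mammary gland begin to make milk. Prolactin binds its receptor (Prlr), JAK2 phosphorylates STAT5, and STAT5, acting with the glucocorticoid receptor, C/EBPβ and ELF5, switches on the casein genes, Wap and Lalba. Caseins are the micelle proteins of milk, WAP and α-lactalbumin are whey proteins, XDH and MFGE8 belong to the milk fat globule, and lactoferrin (Ltf) and lipocalin 2 (Lcn2) are iron-related defence proteins that epithelia, neutrophils and the involuting gland also make.

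The members split into 4 genes with almost no reads and 6 genes with many. Csn1s1, Csn2, Wap and Lalba together had 11 reads among the 191718553 reads on genes in the 6 libraries, whereas Csn3, the κ-casein gene, had 969548. In p140Cap cells Csn3, Xdh, Lcn2, Ltf and Mfge8 were higher, by log2 fold changes of 0.30 to 0.96, and Prlr did not pass the test. Of the 6 members with enough reads for a test, 5 were called higher and none lower, with the edgeR quasi-likelihood test and Benjamini-Hochberg adjusted p-values at a threshold of 0.05. This has to be read against a background in which 71.1% of the 11800 genes tested were called, with 35.2% of the tested genes higher and 35.9% lower. The groups did not overlap for the same 5 members, and they did not overlap for 73.4% of all genes tested. No tested member reached a log2 fold change (log2FC) of 1, whereas 9.97% of genes tested were called with a change of that size and 4.93% were called higher by it. The median log2FC was 0.56 for the 6 members and -0.00 for all genes tested. The other 4 members had too few reads and were not tested.

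Library depth differed between groups. Reads on genes per library ranged from 33058719 to 75506562 in mock and from 13770385 to 15364850 in p140Cap cells, so every mock library was the deeper. Srcin1, the gene of p140Cap, was at 12.8 to 16.6 CPM in mock and 2244 to 2520 CPM in p140Cap libraries, where CPM is the standard depth-scaled read count, here over the TMM-adjusted library size, and each library matched its label. The sources do not say whether replicates came from separate cultures, so p-values measure the spread between these libraries, which may be technical. An exact permutation test of 3 against 3 libraries cannot go below p = 0.1, and single genes were therefore judged by the fit over all genes.

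Promoter sequences are shown for silent and expressed members side by side, with the motif of prolactin signalling marked. RefSeq (GRCm38.p6, the mm10 build) gave promoters for 8 of the 10 members. Csn3 and Xdh had none in this set, so the expressed casein gene could not be set beside the silent ones. Each sequence below is the 250 bases before the annotated transcript start, read 5′ to 3′ on the gene's own strand, and capitals mark a match to TTCNNNGAA, the palindromic site that STAT5 binds. Csn1s1 and Csn2 are the milk genes with a match and next to no reads, at chr5:87665958-87666207 on the plus strand and chr5:87699426-87699675 on the minus strand.
Csn1s1: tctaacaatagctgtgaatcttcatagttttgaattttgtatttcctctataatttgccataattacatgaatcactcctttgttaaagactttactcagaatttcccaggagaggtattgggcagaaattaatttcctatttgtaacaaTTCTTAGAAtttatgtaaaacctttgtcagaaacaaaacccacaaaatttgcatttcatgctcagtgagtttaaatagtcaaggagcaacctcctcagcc
Csn2: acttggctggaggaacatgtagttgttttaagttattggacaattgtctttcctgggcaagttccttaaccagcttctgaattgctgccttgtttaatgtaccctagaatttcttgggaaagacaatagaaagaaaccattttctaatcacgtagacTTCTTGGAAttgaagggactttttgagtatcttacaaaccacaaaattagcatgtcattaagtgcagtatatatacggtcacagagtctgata

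Wap at chr11:6638650-6638899 on the minus strand is a silent whey gene without a match. Lcn2 at chr2:32387740-32387989 on the minus strand and Ltf at chr9:111019042-111019291 on the plus strand are expressed members without one. The windows of Lalba and Mfge8, not printed, held no match either.
Wap: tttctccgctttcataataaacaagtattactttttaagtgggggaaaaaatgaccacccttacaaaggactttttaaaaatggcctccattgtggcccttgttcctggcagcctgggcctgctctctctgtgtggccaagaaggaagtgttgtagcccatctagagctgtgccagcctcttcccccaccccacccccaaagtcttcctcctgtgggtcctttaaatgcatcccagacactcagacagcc
Lcn2: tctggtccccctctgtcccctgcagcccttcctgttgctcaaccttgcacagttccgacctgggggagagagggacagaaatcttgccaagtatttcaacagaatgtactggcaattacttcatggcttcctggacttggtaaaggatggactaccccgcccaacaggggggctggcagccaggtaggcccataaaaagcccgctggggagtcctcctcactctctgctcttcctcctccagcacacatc
Ltf: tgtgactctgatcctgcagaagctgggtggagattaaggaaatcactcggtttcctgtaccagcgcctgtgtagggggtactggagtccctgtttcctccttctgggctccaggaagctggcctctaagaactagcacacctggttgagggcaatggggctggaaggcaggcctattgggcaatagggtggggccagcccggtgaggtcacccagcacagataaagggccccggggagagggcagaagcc

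The receptor gene Prlr has 3 annotated starts in this set, and the one at chr15:10223656-10223905 on the plus strand held a match.
Prlr: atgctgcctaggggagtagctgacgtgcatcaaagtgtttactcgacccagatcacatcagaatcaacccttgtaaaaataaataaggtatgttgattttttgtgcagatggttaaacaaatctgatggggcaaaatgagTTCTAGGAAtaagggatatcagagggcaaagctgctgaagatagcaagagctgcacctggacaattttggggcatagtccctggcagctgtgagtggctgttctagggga

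The letters TTCNNNGAA were thus found in 3 member windows of 10, counting each Prlr start, and in 7.02% of the 32851 windows of the same length in the RefSeq set. Their first base lay at -100 in Csn1s1 (TTCTTAGAA), at -93 in Csn2 (TTCTTGGAA) and at -110 in Prlr (TTCTAGGAA), counted from the transcript start. TTGCGNAA, letters of a C/EBP site searched on both strands, was found in 1 member window, that of another Prlr start, and in 0.670% of all windows. The windows are short, and a match in letters is not a measured binding site.

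Caseins came first because they are the defining milk proteins. Csn1s1 (ENSMUSG00000070702), which encodes αS1-casein, lies on chromosome 5 of GRCm38 from 87666208 to 87682578. It had 1, 2 and 0 reads in mock and 0, 0 and 2 reads in the p140Cap libraries. Csn2 (ENSMUSG00000063157), the β-casein gene at 87692619 to 87699429 on the same chromosome, had 0 reads in all 6 libraries, which allows up to 0.0201 CPM over the pooled mock libraries and 0.0690 CPM over the pooled p140Cap libraries at a limit of 3 reads. These limits, like the other read-count intervals given here, cover counting error only. Both genes were therefore at the edge of detection in each group. The mock to p140Cap ratio of Csn1s1, from pooled reads scaled by library size, was 0.436 with a 95% exact binomial interval of 0.0499 to 5.22, so no difference was detectable at this depth.

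Csn3 (ENSMUSG00000001622) encodes κ-casein, which coats the casein micelle and keeps it in suspension. It lies on chromosome 5 from 87925579 to 87932550, 226 kb beyond the end of Csn2. It had 307324, 169423 and 140430 reads in mock and 124047, 112488 and 115836 in the p140Cap libraries. After scaling these were 4016, 4260 and 4217 CPM in mock and 8176, 7662 and 8508 CPM in p140Cap cells. Every p140Cap library lay well above every mock library. The mean rose from 4164 ± 130 CPM (SD, n = 3) to 8115 ± 426 CPM (SD, n = 3), a log2FC of 0.96 (SE 0.05, adjusted p = 6.94e-11, edgeR quasi-likelihood test, Benjamini-Hochberg adjusted; 95% interval 0.86 to 1.07). Csn3 alone took 0.422% ± 0.0134 of all reads on genes in mock libraries and 0.801% ± 0.0437 in p140Cap libraries (SD, n = 3 each). In bulk RNA, a change in the number of cells that make a transcript and a change in the transcript per cell cannot be told apart. GENCODE places the gene 1700066N21Rik on the opposite strand of Csn3. It is not among the genes counted, and the sources do not state which strand setting was used in counting.

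The remaining casein genes of mouse, Csn1s2a and Csn1s2b, which encode αS2-type caseins, were also nearly silent. Csn1s2a had 0, 1 and 1 reads in mock and 0, 1 and 0 reads in p140Cap libraries. Csn1s2b had 4, 0 and 3 reads in mock and 0, 0 and 0 reads in p140Cap libraries, and was not tested. Over the 6 libraries, 969548 reads fell on Csn3 and 15 on the other 4 casein genes together.

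The casein genes sit in one cluster, 266 kb from the start of Csn1s1 to the end of Csn3, and the genes around them were read next. Of 21 counted genes with a position within 500 kb of the cluster, 9 had 0 reads in every library and 3 were tested. All 3 were called higher in p140Cap cells, as were 35.2% of all genes tested. These 3 were Csn3, which is itself a member, Odam and Sult1d1. Odam passed the filter on low counts through its p140Cap libraries, so the filter favoured a call in that direction. Odam, an odontogenic ameloblast-associated gene whose start lies 40.6 kb before that of Csn3, had 29, 14 and 13 reads in mock and 13, 8 and 9 in p140Cap libraries, with a log2FC of 0.88 (SE 0.33, adjusted p = 0.0256, edgeR quasi-likelihood test, Benjamini-Hochberg adjusted). Sult1d1, a cytosolic sulfotransferase gene, had 73, 47 and 31 reads in mock and 27, 20 and 23 in p140Cap libraries, with a log2FC of 0.67 (SE 0.22, adjusted p = 0.0122). These calls depended on single libraries. The adjusted p of Odam was 0.0576 without mock replicate 1, 0.0534 without mock replicate 2, 0.167 without p140Cap replicate 1 and 0.0576 without p140Cap replicate 3. That of Sult1d1 was 0.0515 without mock replicate 1 and 0.0689 without p140Cap replicate 1. Both neighbours were far below Csn3 in level.

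**Figure D1:**
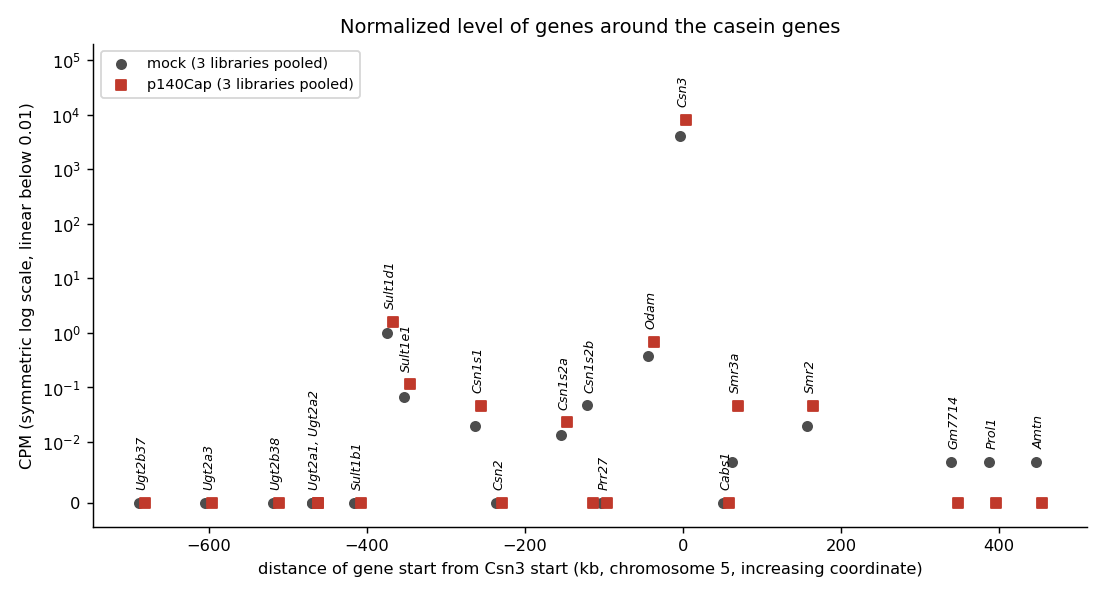
Normalized level of the counted genes around the casein cluster on chromosome 5. The x axis is the distance of each gene's lower coordinate from that of Csn3 in kb, and the y axis is CPM from the reads pooled over the 3 libraries of a group, on a symmetric log scale that is linear below 0.01 (grey circles, mock; red squares, p140Cap, drawn slightly apart). Csn3 stands at 4125 and 8106 CPM and the other casein genes below 0.1 CPM.

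Wap (ENSMUSG00000000381, chromosome 11 from 6635483 to 6638654) encodes whey acidic protein, a major whey protein of mouse milk. It had 2, 1 and 1 reads in mock and 0, 1 and 0 reads in p140Cap libraries. Lalba (ENSMUSG00000022991, chromosome 15 from 98480400 to 98482934) encodes α-lactalbumin, the subunit that turns β-1,4-galactosyltransferase 1 into lactose synthase. It had 1 read, in mock replicate 2, and 0 in the other 5 libraries. Neither whey gene could be compared between groups, since the scaled mock to p140Cap ratio of Wap was 1.16 with a 95% exact binomial interval of 0.115 to 57.2. When every gene with at least 1 read was tested, the adjusted p was 0.924 for Wap, 0.638 for Lalba and 0.607 for Csn1s1 (edgeR quasi-likelihood test, Benjamini-Hochberg adjusted).

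Lcn2 and Ltf are the members with a role in defence. Lcn2 (ENSMUSG00000026822, chromosome 2 from 32384637 to 32387739) encodes lipocalin 2, which binds bacterial siderophores. It had 248835, 131787 and 117719 reads in mock and 78001, 74392 and 73081 reads in p140Cap libraries. Scaled to library size these were 3252, 3313 and 3535 CPM in mock and 5141, 5067 and 5368 CPM in p140Cap cells, with a wide gap between the groups. The mean rose from 3367 ± 149 to 5192 ± 157 CPM (SD, n = 3 each), a log2FC of 0.62 (SE 0.05, adjusted p = 7.51e-09, edgeR quasi-likelihood test, Benjamini-Hochberg adjusted; 95% interval 0.52 to 0.73). Lcn2 took 0.341% ± 0.0137 of all reads on genes in mock and 0.512% ± 0.0164 in p140Cap libraries (SD, n = 3 each).

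Ltf (ENSMUSG00000032496, chromosome 9 from 111019292 to 111042766) encodes lactoferrin, the iron-binding whey protein. It had 4489, 2339 and 1891 reads in mock and 1290, 1227 and 1035 in p140Cap libraries. In CPM these were 58.7, 58.8 and 56.8 in mock and 85.0, 83.6 and 76.0 in p140Cap cells, and the lowest p140Cap library was above the highest mock library. The mean rose from 58.1 ± 1.13 to 81.5 ± 4.84 CPM (SD, n = 3 each), a log2FC of 0.49 (SE 0.05, adjusted p = 3.83e-07, edgeR quasi-likelihood test, Benjamini-Hochberg adjusted).

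Because neutrophils also make lactoferrin and lipocalin 2, markers of neutrophil granules were read beside both genes. Of 9 such markers, Camp, Mpo, S100a9, Ly6g, Mmp8 and Cebpe had 0 reads in every library and none of the 9 had enough reads for a test. Their summed level was 0.0523 to 0.120 CPM in mock and 0 to 0.0734 CPM in p140Cap libraries. The leukocyte markers Ptprc, Cd3e and Adgre1 also had 0 reads in all 6 libraries. Cd68, a lysosomal gene used as a macrophage marker, was the 1 of 5 leukocyte markers tested and rose from 2.14 ± 0.176 to 3.76 ± 0.460 CPM (SD, n = 3 each), a log2FC of 0.83 (SE 0.15, adjusted p = 0.000119, edgeR quasi-likelihood test, Benjamini-Hochberg adjusted). The summed level of the leukocyte list was 2.04 to 2.34 CPM in mock and 3.23 to 4.09 CPM in p140Cap libraries, and its part in the members' results was not tested.

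Xdh and Mfge8 belong to the secretion of milk fat. Xdh (ENSMUSG00000024066, chromosome 17 from 73883895 to 73950397) encodes xanthine dehydrogenase, an enzyme of purine breakdown that also helps lipid droplets bud as milk fat globules. It had 6798, 3647 and 3107 reads in mock and 2614, 2519 and 2323 in p140Cap libraries. The CPM values were 88.8, 91.7 and 93.3 in mock and 172, 172 and 171 in p140Cap cells, so replicates were close to each other and groups far apart. The mean rose from 91.3 ± 2.27 to 171 ± 0.837 CPM (SD, n = 3 each). The log2FC was 0.91 (SE 0.05, 95% interval 0.82 to 1.01, adjusted p = 3.93e-11, edgeR quasi-likelihood test, Benjamini-Hochberg adjusted). GENCODE places Gm18068 on the same strand as Xdh and Gm64661 on the opposite strand.

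Mfge8 (ENSMUSG00000030605, chromosome 7 from 79133768 to 79149060) encodes lactadherin, a phosphatidylserine-binding protein of the milk fat globule membrane. It had 92587, 45927 and 43769 reads in mock and 21864, 24129 and 19878 in p140Cap libraries. In CPM these were 1210, 1155 and 1314 in mock and 1441, 1644 and 1460 in p140Cap cells. The groups did not overlap, but the highest mock and the lowest p140Cap library were close. The mean rose from 1226 ± 81.1 to 1515 ± 112 CPM (SD, n = 3 each), the smallest of the 5 increases, with a log2FC of 0.30 (SE 0.06, adjusted p = 0.000229, edgeR quasi-likelihood test, Benjamini-Hochberg adjusted; 95% interval 0.18 to 0.43). GENCODE places Gm73905 on the opposite strand.

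Prlr (ENSMUSG00000005268, chromosome 15 from 10177238 to 10349190) encodes the prolactin receptor, at the head of the pathway. It had 6764, 3552 and 2611 reads in mock and 1394, 1274 and 1263 in p140Cap libraries. In CPM these were 88.4, 89.3 and 78.4 in mock and 91.9, 86.8 and 92.8 in p140Cap cells, and the groups overlapped. The mean was 85.4 ± 6.05 CPM in mock and 90.5 ± 3.23 CPM in p140Cap cells (SD, n = 3 each), a log2FC of 0.08 (SE 0.06, adjusted p = 0.209, edgeR quasi-likelihood test, Benjamini-Hochberg adjusted). The 95% interval of the log2FC was -0.04 to 0.20. GENCODE places 1 gene on the same strand as Prlr, which had 0 reads, and 3 on the opposite strand.

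**Figure D2:**
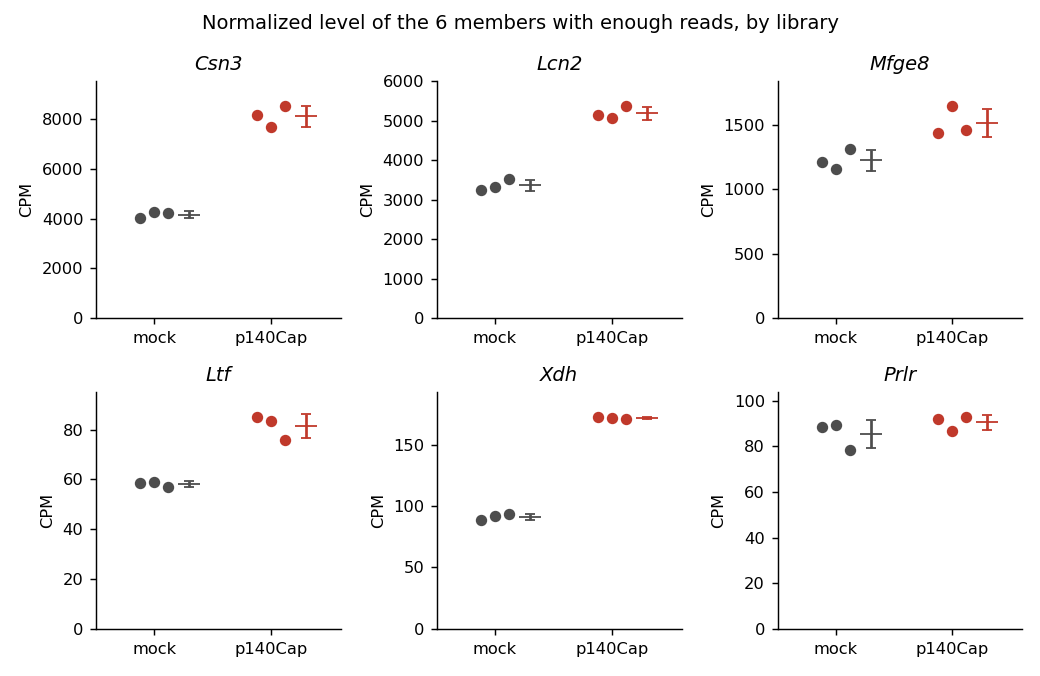
CPM of the 6 members with enough reads for a test, in each library. Each panel is a gene with its own axis from 0, points are the libraries of mock (grey) and p140Cap (red) in replicate order, and the cross bar gives the mean ± SD of 3 libraries. Groups are apart for Csn3, Lcn2, Mfge8, Ltf and Xdh, and overlap for Prlr.

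The increases were of like size at equal depth and without any single library. With all libraries thinned at random to the smallest total, the log2FC was 0.97 for Csn3, 0.86 for Xdh, 0.63 for Lcn2, 0.45 for Ltf, 0.32 for Mfge8 and 0.10 for Prlr. Over all 14 alternatives, the value of Csn3 lay between 0.92 and 1.00, that of Xdh between 0.86 and 0.92, and that of Lcn2 between 0.60 and 0.66. Ltf lay between 0.45 and 0.53, Mfge8 between 0.24 and 0.35 and Prlr between 0.02 and 0.11. The first 5 were called in each of the 14 and Prlr in none.

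**Figure D3:**
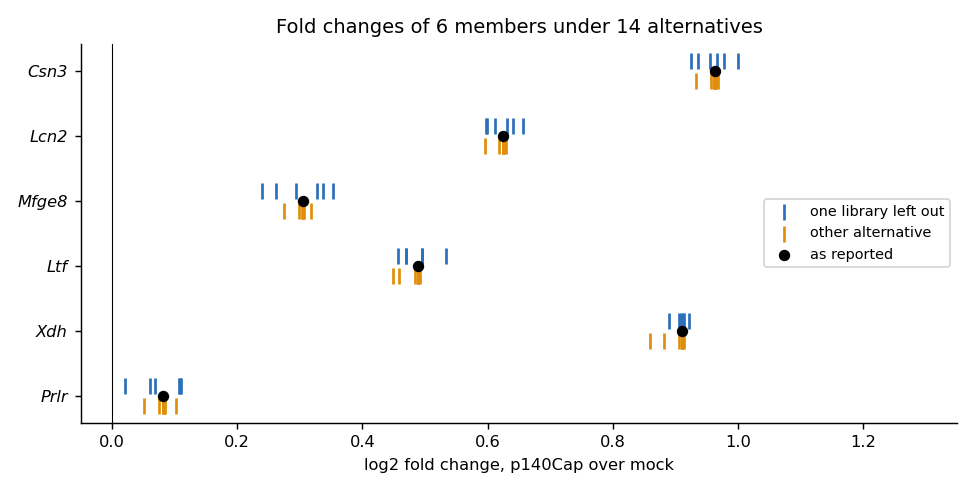
Log2FC, p140Cap over mock, of the 6 tested members as reported (black) and under 14 alternatives. Blue ticks leave out 1 library each and orange ticks change the test, the scaling, the filter, the depth or the block. All ticks are above 0, and those of Prlr are nearest to 0, between 0.02 and 0.11.

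To compare levels between members, CPM was divided by the length in kb of the canonical transcript in GENCODE M39. On this scale Lcn2 was the highest member in mock cells, at 3679 ± 163 CPM per kb, followed by Csn3 at 3238 ± 101 CPM per kb (SD, n = 3 each). In p140Cap cells Csn3 led at 6311 ± 331 CPM per kb, above Lcn2 at 5674 ± 171 CPM per kb. Among the 21649 counted genes with a length, the rank of the mean CPM per kb of Csn3 went from 3 to 1, while that of Lcn2 was 2 in both groups. A casein transcript thus had the highest level per length among the counted genes, which hold no mitochondrial gene, in p140Cap cells, while the other caseins were at the limit of detection.

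Mfge8 came next in both groups, at 603 ± 39.9 CPM per kb in mock and 746 ± 55.0 CPM per kb in p140Cap cells, ranks 65 and 47. Ltf and Xdh were far lower and traded places. Ltf was at 21.0 ± 0.408 and Xdh at 17.2 ± 0.426 CPM per kb in mock cells, and Ltf was at 29.5 ± 1.75 and Xdh at 32.3 ± 0.157 CPM per kb in p140Cap cells (SD, n = 3 each). Prlr was last, at 8.22 ± 0.582 and 8.71 ± 0.311 CPM per kb. In neither group did the libraries of neighbouring members in this order overlap. The order and the ranks rest on the length of the canonical transcript alone, 2764 bp for Ltf and 5317 bp for Xdh. Other lengths could change the order of members close in level, such as Ltf and Xdh or Csn3 and Lcn2.

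Read ratios within a library, which need no scaling by library size or length, also differed between groups. There were 1.24, 1.29 and 1.19 Csn3 reads for each Lcn2 read in the mock libraries and 1.59, 1.51 and 1.59 in the p140Cap libraries. For each Ltf read there were 1.51, 1.56 and 1.64 Xdh reads in mock and 2.03, 2.05 and 2.24 in p140Cap libraries. Both ratios were higher in every p140Cap library than in any mock library. Csn3 and Lcn2 together made up 83.4% to 84.4% of the summed CPM of the 10 members in mock and 86.5% to 88.5% in p140Cap libraries, and that sum was 8713 to 9295 CPM in mock and 14715 to 15675 CPM in p140Cap libraries.

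For each tested member, the genes with the most similar pattern were found as those at the smallest Euclidean distance over the 6 libraries, on log2 CPM centred on the mock mean. The nearest to Csn3 were Liph, at a distance of 0.0562, and Smim14, at 0.0726. Those nearest to Lcn2 were Rcn1 (0.0497) and Chmp2a (0.0515), and those nearest to Ltf were Micall2 (0.0593) and Fam168a (0.0598). Atg10 (0.0724) and Itm2b (0.0771) were nearest to Xdh, Pnkd (0.0493) and Acads (0.0524) to Mfge8, and Gabpa (0.0390) and Zfp148 (0.0414) to Prlr. None of these neighbours was another member or a gene of the milk and signalling lists below.

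Other milk and secretory activation genes were mixed. Of 20 listed, 11 were tested, of which 5 were higher, 4 were lower and 2 were not called, with a median log2FC of 0.52. The shares over all genes tested were 35.2% higher and 35.9% lower. Pigr, the polymeric immunoglobulin receptor that carries IgA into milk, had 47, 30 and 19 reads in mock and 52, 51 and 46 in p140Cap libraries, a log2FC of 2.41 (SE 0.19, adjusted p = 7.3e-09, edgeR quasi-likelihood test, Benjamini-Hochberg adjusted). Muc15, a mucin of the milk fat globule membrane, rose from 13.6 ± 1.24 to 30.5 ± 1.58 CPM (log2FC 1.15, SE 0.08). Wfdc18, a gene of the same four-disulfide core family as Wap, rose from 88.3 ± 3.84 to 159 ± 8.83 CPM (log2FC 0.85, SE 0.05). Plin2, which coats cytoplasmic lipid droplets, had a log2FC of 0.52 (SE 0.05) and Muc1 one of 0.75 (SE 0.09), and both were called higher.

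The 4 that fell were also secretory genes. Slc34a2, a phosphate transporter, had 71, 41 and 27 reads in mock and 2, 0 and 5 in p140Cap libraries, a log2FC of -2.50 (SE 0.50, adjusted p = 0.000272, edgeR quasi-likelihood test, Benjamini-Hochberg adjusted). Its log2FC was -1.92 without p140Cap replicate 2 and -3.73 without p140Cap replicate 3, and it was called lower in both cases. Cited4, a transcriptional cofactor, had 301, 148 and 155 reads in mock and 12, 9 and 12 in p140Cap libraries, a log2FC of -2.42 (SE 0.21). Pthlh, which encodes the parathyroid hormone-related protein, had a log2FC of -0.87 (SE 0.10), and Folr1 one of -0.35 (SE 0.05). Btn1a1, the butyrophilin that partners XDH at the milk fat globule, was at 2.87 ± 0.322 CPM in mock and 2.21 ± 0.280 CPM in p140Cap cells (SD, n = 3 each) and did not pass the test (log2FC -0.38, adjusted p = 0.0538). It was called lower in 4 of 14 alternatives, with an adjusted p of 0.0380 with no filter on low counts, 0.0449 with at least 10 reads in every library, 0.0373 without mock replicate 3 and 0.0398 without p140Cap replicate 2, and the adjusted p over all 14 lay between 0.0373 and 0.457. Of the 9 not tested, Glycam1 had 0 reads in every library.

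Lactose supply was measured because Lalba was silent while its enzyme partner was not. B4galt1, the galactosyltransferase that α-lactalbumin modifies, rose from 382 ± 8.35 to 499 ± 15.6 CPM (SD, n = 3 each), a log2FC of 0.39 (SE 0.05, adjusted p = 1.34e-06, edgeR quasi-likelihood test, Benjamini-Hochberg adjusted). All 8 genes of the lactose and Golgi galactose list were tested, 7 were higher and 1 lower, with a median log2FC of 0.42. For comparison, 71.1% of all genes tested were called, 35.2% higher and 35.9% lower. The largest increases were in Slc35a2, the Golgi UDP-galactose transporter (0.53), Ugp2, which makes UDP-glucose (0.51), and Hk2, a hexokinase (0.50), all as log2FC values. The lower one was the phosphoglucomutase row named Pgm1 in the counts (ENSMUSG00000029171, Pgm2 in GENCODE), with a log2FC of -0.21 (SE 0.07, adjusted p = 0.00935, edgeR quasi-likelihood test, Benjamini-Hochberg adjusted). Its adjusted p was 0.0590 without mock replicate 1 and 0.161 with thinned libraries.

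Beside the receptor, the prolactin and STAT5 axis showed mostly small changes. Of 20 listed genes 15 were tested, 8 were higher, 4 lower and 3 not called, with a median log2FC of 0.16. Across all genes tested, 71.1% were called, 35.2% higher and 35.9% lower. The kinase gene Jak2 rose from 90.3 ± 4.07 to 112 ± 2.89 CPM (log2FC 0.31, SE 0.05, adjusted p = 3.26e-05, edgeR quasi-likelihood test, Benjamini-Hochberg adjusted). Stat5a (0.24, SE 0.07) and Stat5b (0.25, SE 0.06) were also called higher, as was the glucocorticoid receptor gene Nr3c1 (0.20, SE 0.05), whose adjusted p was 0.0527 with thinned libraries. Cebpb did not pass the test, with a log2FC of 0.16 (adjusted p = 0.122), and 1 of 14 alternatives called it. Without mock replicate 1 the value was 0.08 (adjusted p = 0.480), and without mock replicate 3 it was 0.30 (adjusted p = 0.000487). Transcript levels do not measure phosphorylation of STAT5.

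Elf5, the alveolar transcription factor, was at 342, 339 and 323 CPM in mock and 309, 302 and 316 CPM in p140Cap libraries, a log2FC of -0.12 (SE 0.05, adjusted p = 0.0356, edgeR quasi-likelihood test, Benjamini-Hochberg adjusted). This call did not hold without mock replicate 1 (adjusted p = 0.123), mock replicate 2 (0.0849), p140Cap replicate 1 (0.0943) or p140Cap replicate 2 (0.0717), or with the replicate block (0.0734). The hormone receptor genes Esr1 and Pgr had 2 reads and 1 read over all libraries, and Erbb4 and Tnfsf11 had 0. Esr1 and Pgr were therefore too low to compare.

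Cish, a feedback inhibitor and direct target of STAT5, showed the largest increase of this list. It was at 8.73, 6.74 and 8.77 CPM in mock and 21.6, 21.6 and 22.2 CPM in p140Cap libraries, a log2FC of 1.42 (SE 0.09, adjusted p = 1.12e-09, edgeR quasi-likelihood test, Benjamini-Hochberg adjusted). The growth hormone receptor gene Ghr (0.61, SE 0.08) and the suppressor gene Socs3 (0.60, SE 0.09) also rose, as log2FC values. Not all feedback genes moved this way, and Socs2, another STAT5 target, fell from 352 ± 19.4 to 308 ± 6.85 CPM (log2FC -0.19, SE 0.05). Cav1, whose product caveolin-1 holds back JAK2 signalling in the gland, fell from 48.6 ± 2.17 to 19.8 ± 1.52 CPM (log2FC -1.30, SE 0.07), and the phosphatase gene Ptpn1 had a log2FC of -0.27 (SE 0.05).

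Genes of epithelial defence, acute phase and involution were read beside Lcn2 and Ltf. Of 18 listed, 13 were tested, 10 were higher, 2 were lower and 1 was not called, with a median log2FC of 0.73. Over all genes tested, 35.2% were called higher and 35.9% lower. Igfbp5, an IGF-binding protein of the involuting gland, rose from 41.9 ± 3.66 to 111 ± 11.0 CPM (log2FC 1.40, SE 0.07, adjusted p = 6.43e-11, edgeR quasi-likelihood test, Benjamini-Hochberg adjusted). The endotoxin-binding genes Lbp and Cd14 rose from 135 ± 5.10 to 345 ± 10.9 CPM (1.36, SE 0.05) and from 101 ± 3.64 to 247 ± 5.70 CPM (1.29, SE 0.05). The same list held Stat3 (0.50), Cebpd (0.86), Osmr (1.15) and Lif (0.79), all called higher, and Slc22a17, which encodes a lipocalin 2 receptor, at 1.55 ± 0.0603 CPM in mock and 2.57 ± 0.292 CPM in p140Cap cells (0.73, SE 0.17), as log2FC values.

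The 2 lower genes were the complement gene C3, with a log2FC of -0.56 (SE 0.12), and the gp130 receptor gene Il6st, with one of -0.16 (SE 0.05, adjusted p = 0.0127, edgeR quasi-likelihood test, Benjamini-Hochberg adjusted). The adjusted p of Il6st was 0.0911 without mock replicate 1 and 0.0816 with thinned libraries. The acute phase genes Saa1, Saa2, Saa3, Hp and Orm1 had too few reads for a test.

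**Figure D4:**
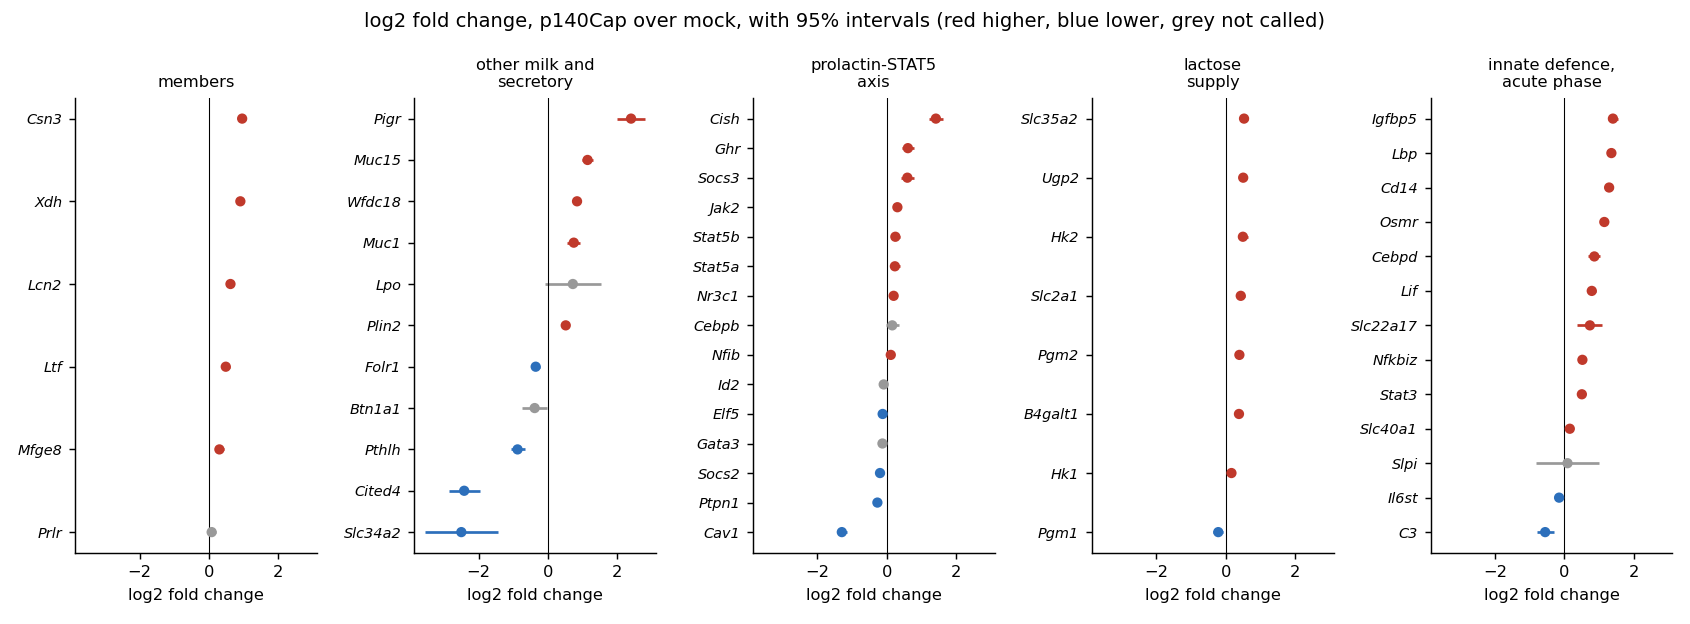
Log2FC, p140Cap over mock, of the tested members and of the tested genes of 4 lists, with 95% intervals. Red points were called higher, blue lower and grey not called. The members lie between 0.08 and 0.96, and the other milk and secretory genes spread from -2.50 to 2.41.

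The labelled cell type was read from its markers. Of 8 epithelial and luminal markers 7 were tested, 5 were higher and 1, Krt7, was lower, and their summed level was 5640 to 6072 CPM in mock and 6333 to 6475 CPM in p140Cap libraries. Krt19 had 15 reads over all libraries. None of 6 basal and myoepithelial markers was tested, and their sum was 0.640 to 1.02 CPM in mock and 0.588 to 1.19 CPM in p140Cap libraries. Adipocyte markers, relevant to Plin2, summed to 0.0901 to 0.183 CPM in mock and 0.272 to 0.588 CPM in p140Cap libraries, with Lep and Cfd at 0 reads. Most of these reads were of Fabp4, with 18 pooled over mock and 15 over p140Cap libraries, and no adipocyte marker was tested. Of the fibroblast and endothelial markers Col1a2, Col3a1, Dcn and Lum had 0 reads, and 3 of 8 were tested. Col1a1 and Pecam1 were called higher, but Pecam1 passed the filter on low counts through its p140Cap libraries. It had 18, 17 and 5 reads in mock and 11, 7 and 10 in p140Cap libraries. Among all genes tested, 35.2% were called higher and 35.9% lower. The sum of the 8 markers was 10.2 to 10.9 CPM in mock and 12.1 to 14.6 CPM in p140Cap libraries. The part of these differences in the members' results was not tested.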

How the data were processed

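Stranded poly(A)-selected RNA-Seq of 3 mock and 3 p140Cap TuBo libraries was read on a NextSeq 500. The authors deposited counts, whole reads per gene for 21960 genes in each library, without normalization. The submitters' processing notes name STAR 2.5, RSEM 0.1.1 and mm10 without roles, so whether estimates were rounded is unknown. 0 columns were left unused.

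Counts were analysed with edgeR 4.0.16 in R 4.3.3 with TMM factors, filterByExpr by group, condition as the sole term, the quasi-likelihood test and Benjamini-Hochberg adjustment over 11800 genes, at a threshold of 0.05. SE was derived as the size of the log2FC over the root of the F statistic. When counts of 11735 genes were simulated for p140Cap against mock with 200 genes changed, 99% of these were recovered and 2.94% of calls were false. Both shares hold for that setting alone and were not split by size of change. Recovery with 71.1% of the 11800 genes called, as in the real libraries, was not tested. In the real libraries, the mean chi-square of replicate pairs was lowest, at 1.75, for p140Cap replicates 1 and 3. It was 4.57 to 10.7 for the other pairs. No pair had identical counts, and whether p140Cap replicates 1 and 3 share a source is not stated. Deposited totals of 13770385 to 75506562 reads set the precision.

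The members and lists were chosen with earlier results of these data known. Named genes were all members, Srcin1, up to 3 called genes per list and direction with the largest change, 7 genes of the prolactin axis, and the nearest patterns. Some genes of these lists are not reported here. Other list genes and markers were named after their values were seen. Alternatives were DESeq2 1.42.0, RLE and upper quartile factors, other filters, limma-voom (limma 3.58.1), thinned libraries, leaving out each library, and a replicate block. Coordinates and promoters are RefSeq GRCm38.p6, and lengths and strands are GENCODE M39 by Ensembl identifier, which 98.6% of genes matched.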

Additional observations from a re-analysis of the deposited data

How the results depend on the processing

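Under the 14 alternatives the number of genes called lay between 7215 (thinned libraries) and 8716 (no filter on low counts), against 8388 as reported, and 5 members were called in each. Leaving out 1 library at a time gave 7851 to 8253 genes. The genes beside the caseins were the exception. Of these, 2 were called as reported, 1 with DESeq2, 1 with no filter on low counts, 1 with at least 10 reads in every library and 1 with thinned libraries, and leaving out 1 library gave 0 to 2. The stricter filter and the thinning left Odam with too few reads to be tested, and for the others the cause was not tested. With the replicate number as a block, 8034 genes and 5 members were called. Libraries with the same number did not deviate together (correlations of -0.03, -0.11 and -0.06), so the numbers were not taken to pair the samples. Among the fold changes of single genes, 722 values kept their side of the threshold, 27 lost the call and 10 gained it. No called value changed sign. Slpi, which was not called, had a log2FC of 0.09 as reported, -0.05 without p140Cap replicate 2 and -0.11 without p140Cap replicate 3. Without the filter the median log2 fold change of all genes was -0.06. Depth limits Csn1s1, Csn2, Wap and Lalba. For Csn2 and Lalba, with 0 reads there, the pooled p140Cap libraries allow up to 0.0690 CPM.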
